A study of Mus musculus with 4 samples.

Results

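A group of 10 imprinted genes that are expressed in embryonic mesenchyme and act in growth control were followed in 3T3-MEFs, namely H19, Dlk1, Meg3, Grb10, Mest, Ndn, Peg3, Plagl1, Nnat and Sgce. They were chosen by name, and every probe set annotated to a member symbol alone was used, with the brightest probe set over the 4 arrays standing for the gene. By this rule 9 of the 10 genes had a probe set, out of 18193 genes named on the array, with 36 probe sets among them. Of the 9 genes, 8 exceeded the filter on signal and were tested. Nnat did not, and the probe set for H19 carries a second gene name and gave no gene value.

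The study measured total RNA on 4 single-colour Affymetrix arrays, 2 from cells carrying SMRTmRID and 2 from wild-type cells. 3T3-MEFs are mouse embryonic fibroblasts that have been passaged until they grow as a permanent line. Both lots were undifferentiated and were collected once confluent, without induction. The SMRT protein helps nuclear receptors to keep their target genes off, and the name SMRTmRID denotes a change in its receptor interaction domains (RID), the stretches that touch the receptors. The labels give no strain, embryo age, sex or number of lines, and the arrays of a genotype are described there as technical replicates. Each p-value below therefore measures the spread between technical replicates, and a difference between genotypes cannot be told apart from a difference between 2 cell lines. The genotype labels were not checked against the SMRT transcript. Of the fibroblast markers, collagen genes were bright in both genotypes, whereas Thy1, Fap and Lum were near the low end of the scale in wild-type, as their values further on show.

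Imprinted genes are transcribed mainly from 1 parental allele, because a DNA methylation mark set in egg or sperm is kept in the embryo. Many lie in domains in which protein-coding genes active on the paternal allele sit beside noncoding RNAs active on the maternal allele. As a group they are known for setting the growth of the fetus and placenta, and several have been linked to the step between mesenchymal precursor and adipocyte. The arrays measure the sum of both alleles, and no allele was told apart here. In such bulk RNA, fewer cells of a type and less RNA per cell cannot be told apart either.

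The start regions of 4 of these genes are shown because the largest rise (Peg3), the largest fall (Mest) and the shared domain on chromosome 12 (Dlk1 and Meg3) come from them. The windows hold 300 bases, most of them upstream of an annotated start, 5′ to 3′ on the gene's strand, from RefSeq on build GRCm38.p6. Capitals mark TGCCGC or its reverse complement GCGGCA, the letters bound by ZFP57, the zinc finger protein that keeps imprints, and GGGGCCCC, which reads the same on both strands and is bound by the zinc finger protein encoded by the member Plagl1.
Mest, chr6:30737800-30738099, plus strand: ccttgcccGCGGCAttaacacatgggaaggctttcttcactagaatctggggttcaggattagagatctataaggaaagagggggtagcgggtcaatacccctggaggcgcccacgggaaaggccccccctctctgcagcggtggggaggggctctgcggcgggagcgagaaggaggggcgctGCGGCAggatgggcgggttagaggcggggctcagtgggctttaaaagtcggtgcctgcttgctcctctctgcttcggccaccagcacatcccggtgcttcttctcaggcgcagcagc
Peg3, chr7:6730370-6730669, minus strand: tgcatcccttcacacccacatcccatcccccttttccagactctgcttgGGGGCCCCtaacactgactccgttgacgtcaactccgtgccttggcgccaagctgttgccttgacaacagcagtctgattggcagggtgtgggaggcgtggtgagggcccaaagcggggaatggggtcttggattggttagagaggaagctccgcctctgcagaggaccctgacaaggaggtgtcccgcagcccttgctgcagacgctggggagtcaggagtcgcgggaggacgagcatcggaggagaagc
Dlk1, chr12:109452573-109452872, plus strand: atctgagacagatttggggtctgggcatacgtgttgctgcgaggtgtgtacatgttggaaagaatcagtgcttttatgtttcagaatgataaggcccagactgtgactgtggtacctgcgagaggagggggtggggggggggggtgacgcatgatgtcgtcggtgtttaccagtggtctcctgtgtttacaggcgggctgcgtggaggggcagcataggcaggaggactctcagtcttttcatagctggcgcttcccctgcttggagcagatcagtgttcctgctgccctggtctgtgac
Meg3, chr12:109540746-109541045, plus strand: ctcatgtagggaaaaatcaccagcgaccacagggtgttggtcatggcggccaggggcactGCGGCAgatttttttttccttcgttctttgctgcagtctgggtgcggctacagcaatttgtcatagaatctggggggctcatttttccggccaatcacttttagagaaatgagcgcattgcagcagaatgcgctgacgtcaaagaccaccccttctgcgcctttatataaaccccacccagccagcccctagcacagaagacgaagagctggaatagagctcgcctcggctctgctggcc

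Windows were found for 8 of the 10 genes, 12 windows in all, with none for H19 and Sgce. The ZFP57 hexamer lay in 6 of the 12 windows, which belong to 5 genes (Meg3, Grb10, Mest, Plagl1 and Nnat), and 2 of these windows are overlapping starts of Mest. It lay in 11.6% of all 32851 windows of that length. The hexamer holds a CpG dinucleotide, and the windows were not matched for their CpG number. Another Mest window and the other Meg3 window, not printed, held no match. The Plagl1 octamer lay in the Peg3 window, and in 1.08% of all windows. The Peg3 window shares 263 bases with that of Usp29, the gene transcribed away from it on the other strand. A match of letters is a description and not a binding site.

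Mest is also the host of a microRNA, mir-335, which lies within the Mest gene on the same strand and in an intron of it. Its mature products were not measured by these arrays and are shown because their host had the largest fall. Capitals mark the seed, bases 2 to 8, and the 2 arms have different seeds.
mmu-miR-335-5p, chr6:30741314-30741336: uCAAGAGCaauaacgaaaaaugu
mmu-miR-335-3p, chr6:30741354-30741375: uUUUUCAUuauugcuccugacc

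Of the 8 tested imprinted genes, 5 were lower and 2 higher in SMRTmRID cells, and Plagl1 did not pass. Mest, Dlk1, Ndn, Grb10 and Meg3 fell, and Peg3 and Sgce rose. Peg3 had to differ to be tested, since the SMRTmRID arrays alone took it past the filter. Across the array 65.2% of the 11057 tested genes passed the same test, 35.0% lower and 30.3% higher (limma, Benjamini-Hochberg adjusted p under 0.05), so a call by itself does not set these genes apart. The median difference of the 8 genes was -0.34 on the log2(signal + 16) scale, beside -0.05 over all tested genes. Differences are SMRTmRID minus wild-type on that scale, where changes from a low level come out too small. Signals are linear MAS5 values, and each test compares values within a probe set.

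**Figure D1:**
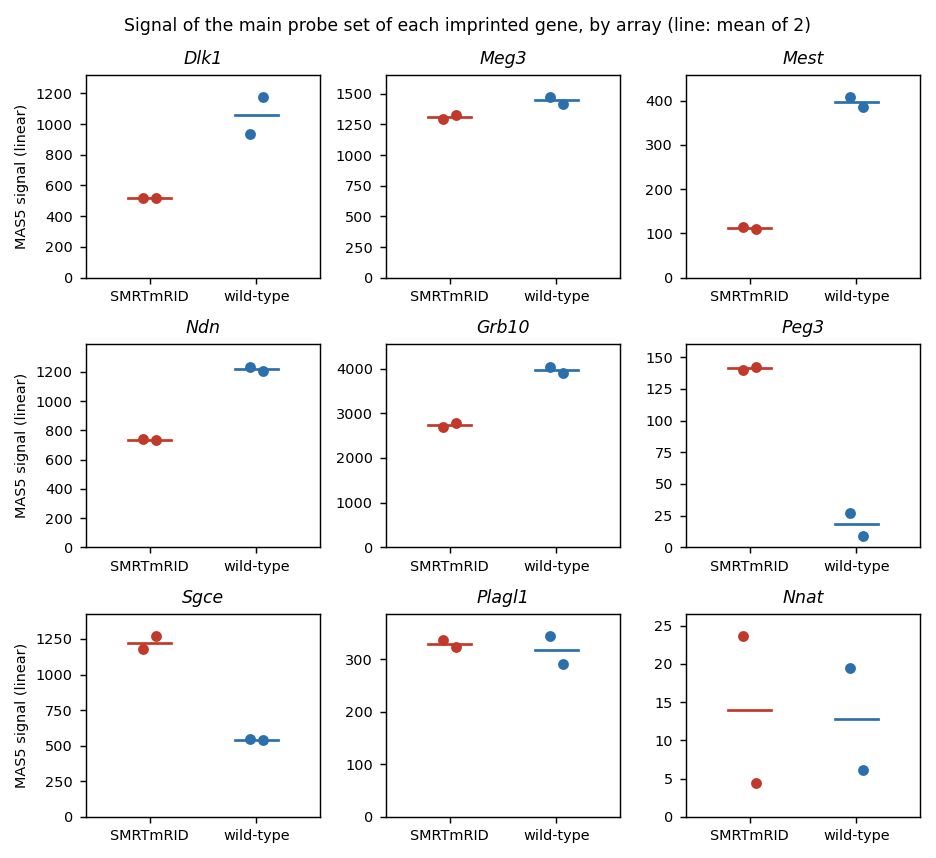
MAS5 signal on a linear scale (y axis, from 0, own range in each panel) of the main probe set of 9 imprinted genes on the 2 SMRTmRID and 2 wild-type arrays, points being arrays and lines their means. Mest lies at 111 and 115 in SMRTmRID against 386 and 408 in wild-type, Peg3 at 140.3 and 143 in SMRTmRID against 9.03 and 27.3 in wild-type, and the genotypes overlap for Plagl1 and Nnat.

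Dlk1 and Meg3 share a domain on chromosome 12. Dlk1 encodes the preadipocyte factor Pref-1, a membrane protein with EGF-like repeats that is shed and holds back adipocyte differentiation, and it is transcribed from the paternal allele. Its signal was 518 and 517 on the SMRTmRID arrays and 936 and 1175 on the wild-type arrays. The SMRTmRID arrays were almost equal and lay below both wild-type arrays, which differed from each other more. The log2 difference was -0.996 ± 0.09 (SE, limma adjusted p = 1.22e-05). It was -0.83 without wild-type replicate 2, the brighter of the wild-type arrays, and still passed. A second Dlk1 probe set, not tested, had signals of 15.1 and 12.3 in SMRTmRID and 23.6 and 19.4 in wild-type.

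Meg3 is a noncoding RNA of the maternal allele, transcribed from the same domain. Its brightest probe set gave 1296 and 1329 in SMRTmRID and 1472 and 1419.5 in wild-type. The arrays did not overlap, but the gap was small, with a log2 difference of -0.14 ± 0.05 (SE, limma adjusted p = 0.0376). This call was lost without either SMRTmRID array (adjusted p = 0.139 without replicate 1 and 0.0622 without replicate 2), without wild-type replicate 1 (0.162), with quantile normalization (0.357), without the variance trend (0.147) and without the filter (0.0550). Meg3 had 11 probe sets, of which 10 were tested over all 22481 probe sets above the filter. All 10 had a difference below 0, between -0.82 and -0.06, and 4 of them passed. Across the array 59.5% of tested probe sets passed, 28.2% lower and 31.2% higher. Over all members, 14 of the 24 tested probe sets were lower, 3 were higher and 7 did not pass. Of the 3 higher, 2 were those of Peg3, which passed the filter through the SMRTmRID arrays alone.

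The dimmer Meg3 probe sets included the wider gaps. The 5 probe sets with mean signals between 875 and 1379 had differences from -0.27 to -0.06, while 3 of the 5 between 38.0 and 75.8 had differences of -0.82, -0.75 and -0.72. The probe set at -0.82 overlapped between genotypes and did not pass (adjusted p = 0.079 by limma). The other 2 of these 5, at -0.22 and -0.08, did not pass either. The one at -0.72 had 25.6 and 24.2 in SMRTmRID against 53.3 and 49.1 in wild-type, and passed the filter through its wild-type arrays alone. The main probe set alone thus gave one of the smaller Meg3 differences, and the mean over all Meg3 probe sets gave -0.36 (adjusted p = 0.00931 by limma).

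Rian and Mirg, noncoding RNAs that lie beyond Meg3 in the domain and carry small nucleolar RNAs and microRNAs, were lower as well. Rian had signals of 322 and 257 in SMRTmRID and 559 and 513 in wild-type, a log2 difference of -0.86 ± 0.11 (SE, limma adjusted p = 7.45e-05). Mirg had 150.2 and 134 in SMRTmRID and 189 and 222 in wild-type, a log2 difference of -0.48 ± 0.13 (SE, limma adjusted p = 0.00889), which did not pass without wild-type replicate 2 (0.0708). Dlk1, Meg3, Rian and Mirg, the 4 listed genes of the domain that were tested, therefore all passed in the downward direction on their brightest probe set. Of the 4 Rian probe sets 2 were lower and 2 did not pass with differences of 0.46 and 0.15, and the mean over them was -0.19 (adjusted p = 0.187).

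Mest encodes a protein of the alpha/beta hydrolase fold, is transcribed from the paternal allele and has been linked to fat cell enlargement in mice. It had the largest fall of the group, with signals of 115 and 111 in SMRTmRID and 408 and 386 in wild-type. The mean was 3.51-fold higher in wild-type cells, and the log2 difference was -1.68 ± 0.10 (SE, limma adjusted p = 6.83e-07). A smaller absolute difference was seen in 94.3% of the tested genes. Mest had a single probe set. Copg2, which overlaps the Mest region from the opposite strand, had 346 and 309 in SMRTmRID and 290.4 and 296 in wild-type and did not pass (difference 0.15, 95% interval -0.06 to 0.35).

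Ndn encodes necdin, a growth suppressor of the MAGE family that binds E2F1 and p53, and is transcribed from the paternal allele of a domain on chromosome 7. Its brightest probe set gave 738 and 734 in SMRTmRID and 1236 and 1206 in wild-type. The 2 arrays of each genotype were close and the genotypes far apart, with a log2 difference of -0.72 ± 0.05 (SE, limma adjusted p = 2.48e-06). All 5 tested probe sets of Ndn were lower, with differences between -0.81 and -0.66. Some of the 5, though not the brightest, belong to a class that the manufacturer marks as open to cross-hybridisation. The other 3 probe sets of Ndn, with signals up to 17.2, were not tested. With them included the mean over all 8 gave -0.33.

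The paternally expressed genes listed beside Ndn were dim. Ube3a and Atp10a, also listed as imprinted and near Ndn, were brighter. Ube3a had 540 and 517 in SMRTmRID and 310 and 341 in wild-type. Its log2 difference was 0.67 ± 0.08 (SE, limma adjusted p = 5.41e-05), a rise, while Atp10a fell, with a log2 difference of -1.98. Peg12, a paternally expressed neighbour, had 23.9 and 20.1 in SMRTmRID and 45.4 and 62.2 in wild-type, a log2 difference of -0.87 ± 0.27 (SE, limma adjusted p = 0.0189) that did not pass without SMRTmRID replicate 2 (0.0650) or wild-type replicate 2 (0.141). Magel2, Mkrn3 and Snrpn had no signal above 33.1 on any array and were not tested. Peg12 passed the filter through its wild-type arrays alone.

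Grb10 encodes an adaptor that binds the insulin and IGF1 receptors and damps their signal, and it is transcribed from the maternal allele outside the brain. It had 2689.8 and 2793 in SMRTmRID and 4045 and 3914 in wild-type. The arrays did not overlap, and the log2 difference was -0.54 ± 0.05 (SE, limma adjusted p = 6.63e-06). All 3 probe sets of Grb10 fell, the other 2 by more, with differences of -0.84 and -0.78. Of its neighbours, Cobl, an actin nucleator gene, had 8.78 and 3.30 in SMRTmRID and 70.6 and 63.4 in wild-type, a log2 difference of -1.92 ± 0.30 (SE). Cobl passed the filter through its wild-type arrays alone, and its difference was -3.39 with a pseudocount of 1 and -0.90 with 64. Ddc had signals up to 26.9 and was not tested.

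Peg3 encodes a large zinc finger protein, is transcribed from the paternal allele and takes part in growth and maternal care in mice. It was the member with the largest rise. Its brightest probe set gave 140.3 and 143 in SMRTmRID and 27.3 and 9.03 in wild-type. Both SMRTmRID arrays lay far above the wild-type arrays, which were near the low end of the scale. The log2 difference was 2.26 ± 0.28 (SE, limma adjusted p = 7.01e-05). Because wild-type is so low, the size depended on the pseudocount, at 3.08 with 1 and 1.33 with 64, and Peg3 passed the filter through the SMRTmRID arrays alone.

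Other Peg3 probe sets were dimmer. A second gave 68.0 and 74.2 in SMRTmRID and 6.42 and 16.8 in wild-type, with a log2 difference of 1.68 ± 0.28 (SE). It too passed the filter through the SMRTmRID arrays alone. Another, below the filter, gave 42.9 and 41.7 in SMRTmRID against 4.52 and 6.95 in wild-type. The remaining 2 of the 5 had no signal above 6.33 on any array. Usp29, which starts in the window printed above for Peg3 and runs the other way, stayed dim, with 3.10 and 9.23 in SMRTmRID and 19.02 and 1.64 in wild-type for its brightest probe set. Zim1, a maternally expressed gene of the domain, had 2.00 and 14.7 in SMRTmRID and 19.2 and 9.49 in wild-type. Neither was tested.

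Sgce encodes epsilon-sarcoglycan, a membrane glycoprotein related to the dystrophin complex, and is transcribed from the paternal allele on chromosome 6. Its signal was 1177 and 1269.6 in SMRTmRID and 546 and 539.6 in wild-type. The genotypes were well separated, with a log2 difference of 1.15 ± 0.06 (SE, limma adjusted p = 2.86e-07). Its other probe set had signals up to 16.4 and was not tested. Casd1, the gene beside Sgce, which encodes a sialic acid acetyltransferase, had 624 and 633 in SMRTmRID and 153 and 133 in wild-type, a log2 difference of 2.02 ± 0.09 (SE, limma adjusted p = 1.14e-07). Both Casd1 probe sets rose. Peg10, which starts next to Sgce on the other strand, had 24.5 and 45.6 in SMRTmRID and 4.38 and 12.95 in wild-type and was not tested.

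Plagl1 encodes a zinc finger transcription factor that restrains growth and is known in mice as a regulator of other imprinted genes. It had 336 and 324 in SMRTmRID and 344 and 291 in wild-type. The genotypes overlapped, and the log2 difference was 0.06 with a 95% interval from -0.16 to 0.28 (adjusted p = 0.628 by limma). Its sign turned without wild-type replicate 2 and with quantile normalization. The probe set belongs to a class that the manufacturer marks as open to cross-hybridisation, and the other 2 Plagl1 probe sets had signals up to 40.4 and were not tested. Of these, one gave 40.4 and 12.1 in SMRTmRID against 5.27 and 5.30 in wild-type, and the other overlapped.

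Nnat encodes neuronatin, a small protein of the endoplasmic reticulum membrane found in neurons and in fat. It had 23.6 and 4.41 in SMRTmRID and 19.4 and 6.11 in wild-type on its only probe set. The 2 arrays of a genotype differed more than the genotypes did. Blcap, the gene in whose intron Nnat lies, was well measured, with 449 and 496 in SMRTmRID and 366 and 359.7 in wild-type, a log2 difference of 0.36 ± 0.08 (SE, limma adjusted p = 0.00274). Nnat was thus near the low end of the scale in both genotypes.

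H19, a maternally expressed noncoding RNA, gave no value of its own. The array's probe set there is annotated to both H19 and Mir675, the microRNA gene inside it. That joint probe set had 41.3 and 54.3 in SMRTmRID and 26.6 and 30.7 in wild-type and did not pass (difference 0.51, adjusted p = 0.105 by limma). Igf2, the growth factor gene that shares H19's domain and is active on the paternal allele, had 189 and 181 in SMRTmRID and 8.14 and 6.09 in wild-type. Its log2 difference was 3.12 ± 0.22 (SE, limma adjusted p = 1.54e-06), and it passed the filter through the SMRTmRID arrays alone. A second Igf2 probe set, below the filter, overlapped between genotypes, with 13.6 and 8.41 in SMRTmRID against 5.07 and 9.66 in wild-type.

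**Figure D2:**
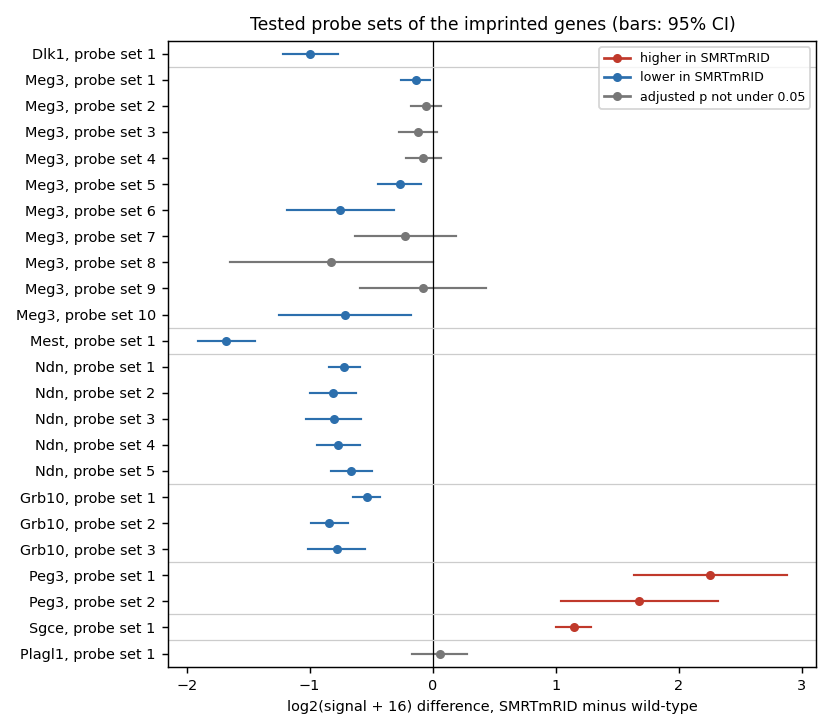
Difference in log2(signal + 16), SMRTmRID minus wild-type (x axis), for the 24 tested probe sets of the imprinted genes, with 95% intervals from limma as bars and probe sets ordered from bright to dim within a gene. All tested probe sets of Ndn (5), Grb10 (3) and Peg3 (2) lie on one side of 0 clear of it, whereas 6 of 10 for Meg3 did not pass. The 2 Peg3 probe sets passed the filter through the SMRTmRID arrays alone and so had to differ.

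By parental allele, the counts were too small to compare and were not tested. Of the 2 measured members of the maternal allele, Meg3 and Grb10, both fell. Of the 7 measured members of the paternal allele 3 fell (Dlk1, Mest and Ndn), 2 rose (Peg3 and Sgce), Plagl1 did not pass and Nnat was not tested. For 7 of the 8 tested members every SMRTmRID array lay on one side of both wild-type arrays, 5 below and 2 above. Over all tested genes this held for 81.5%, 43.4% below and 38.1% above. Peg3, counted here and in the 2-fold rises that follow, had to differ to be tested. Differences of at least 2-fold on the log2(signal + 16) scale were seen upward for Peg3 and Sgce, beside 9.69% of tested genes, and downward for Mest, beside 6.79%, with Dlk1 just under that size on this scale.

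**Figure D3:**
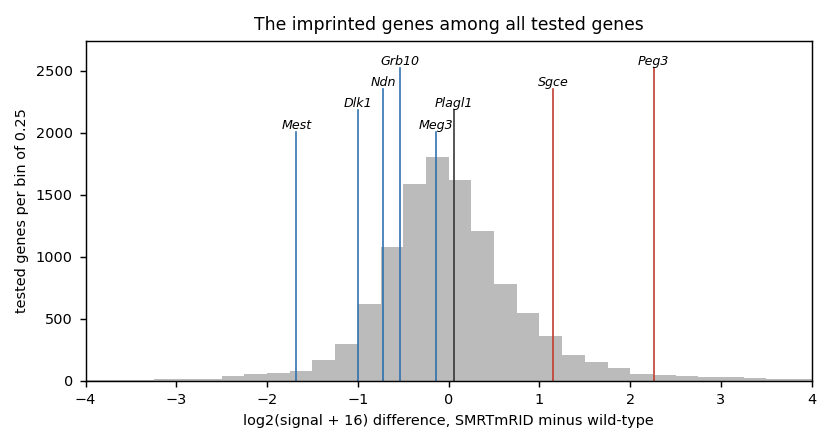
Histogram of the difference in log2(signal + 16), SMRTmRID minus wild-type, over the 11057 tested genes in bins of 0.25, with the 8 tested imprinted genes as lines (red higher, blue lower, dark grey not past the threshold). The x axis is limited to 4 either way, which leaves out 54 genes, and Mest at -1.68 and Peg3 at 2.26 lie in the flanks while Meg3 and Plagl1 lie at the centre.

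Within domains, the genes next to the members were compared with them. Ube3a and Atp10a near Ndn and Asb4 near Sgce were not among the neighbours counted here. Of 18 measured neighbours 10 could be tested, of which 3 rose (Igf2, Casd1 and Blcap), 6 fell (Rian, Mirg, Cdkn1c, Peg12, Cobl and Phactr2) and Copg2 did not pass. Over all tested genes 65.2% passed, 30.3% higher and 35.0% lower, and Igf2, Peg12 and Cobl had to differ to be tested, since 1 genotype alone took them past the filter. The other 8 had signals up to 45.6. Cdkn1c, a cell cycle inhibitor gene of the maternal allele in the domain next to Igf2, had 73.7 and 99.5 in SMRTmRID and 197 and 200.04 in wild-type, a log2 difference of -1.08 ± 0.16 (SE, limma adjusted p = 0.000226). Phlda2, of the same domain, had signals up to 18.3 and was not tested. Phactr2, beside Plagl1, had a log2 difference of -0.62 (adjusted p = 0.0374 by limma) that was lost without SMRTmRID replicate 2 (0.197), without wild-type replicate 1 (0.211) and under 3 other settings. Dlk1, Meg3, Rian and Mirg thus all lay below 0 on their brightest probe sets. Of the 4 Rian probe sets, 2 lay above 0 and did not pass. The dimmer Mirg probe set, at -0.24, overlapped between genotypes and did not pass. Sgce and Casd1 lay above 0. In contrast Asb4, an imprinted gene further along the same region, had 45.97 and 24.2 in SMRTmRID and 87.1 and 115 in wild-type and fell. Asb4 passed the filter through its wild-type arrays alone and so had to differ. Pon3 and Pon2, between Casd1 and Asb4, had differences of 0.01 and -0.20 and did not pass. Mest and its neighbour Copg2 differed in call, as did Plagl1 and Phactr2. A dimmer tested Phactr2 probe set lay at 0.36 and did not pass. The mean over all Phactr2 probe sets gave -0.08 (adjusted p = 0.677 by limma).

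**Figure D4:**
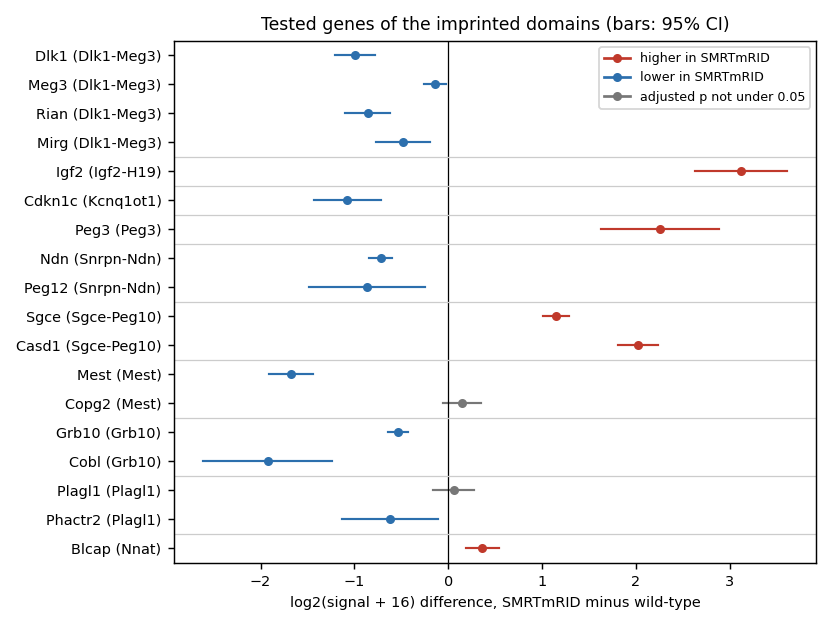
Difference in log2(signal + 16), SMRTmRID minus wild-type (x axis), of 18 tested genes of 10 imprinted domains, with 95% intervals from limma as bars and the domain in brackets. Each gene is shown by its brightest probe set. Dlk1, Meg3, Rian and Mirg lie between -0.996 and -0.14, Sgce and Casd1 at 1.15 and 2.02, and Igf2 at 3.12.

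Over a wider list of 69 other imprinted genes, 37 were tested, 17 of them lower, 11 higher and 9 short of the threshold. Their median difference was -0.20, beside -0.05 over all genes, and 75.7% were called, beside 65.2% of all genes. The largest rise was that of Dcn, the matrix proteoglycan decorin, which is imprinted in the mouse placenta, at 6.82, and it stands among the fibroblast markers too. Slc38a4, an amino acid transporter gene of the paternal allele, had 273 and 262 in SMRTmRID and 50.0 and 44.2 in wild-type, a difference of 2.17 ± 0.14 (SE, limma adjusted p = 1.17e-06). Among the falls, Atp10a had 55.3 and 51.7 in SMRTmRID and 261 and 257 in wild-type, and Tssc4, Sfmbt2, Asb4, Tnfrsf23 and Slc22a18 had differences of -1.45, -1.33, -1.22, -1.13 and -1.09. Sfmbt2, Asb4 and Slc22a18 passed the filter through their wild-type arrays alone. These genes, and Igf2, Peg12 and Cobl, are counted among the calls of this list although they had to differ to be tested. The list also holds the tested neighbours counted above, so the counts are not separate. Without SMRTmRID replicate 1 the difference of Slc22a18 was -1.65. The call of Slc22a18 was lost under 5 of its alternatives, including the loss of either wild-type array (adjusted p = 0.0519 without replicate 1 and 0.111 without replicate 2) and of SMRTmRID replicate 2 (0.159).

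Genes that keep imprints and DNA methylation were read beside the members. Among the 20 tested there were 10 rises and 5 falls, the other 5 missed the threshold, and the median difference was 0.09. The called share was 75%, beside 65.2% of all tested genes, 30.3% higher and 35.0% lower. Trim28, the cofactor that ZFP57 brings to imprinted marks, had 1301 and 1330.1 in SMRTmRID and 2831 and 2887 in wild-type. The difference was -1.11 ± 0.05 (SE, limma adjusted p = 6.38e-08), on a probe set of the class open to cross-hybridisation. Uhrf1, which guides the maintenance methyltransferase, fell by 0.97, and that methyltransferase's gene, Dnmt1, by 0.50. Zfp57 itself did not pass, with 85.5 and 83.6 in SMRTmRID and 92.3 and 110.6 in wild-type. Hells, Suz12, Zfp445 and Setdb1 rose by 0.82, 0.75, 0.75 and 0.52. Atrx and Smchd1, chromatin regulators, rose by 2.22 and 1.43. Dnmt3l, a cofactor of new methylation in germ cells, had 103 and 115 in SMRTmRID and 24.9 and 13.9 in wild-type, a difference of 1.84. It passed the filter through the SMRTmRID arrays alone, and the difference was 2.49 with a pseudocount of 1 and 1.06 with 64. Tet2, an enzyme of methyl-cytosine oxidation, rose by 0.93, but not without SMRTmRID replicate 1 (0.0957) or wild-type replicate 2 (0.0731). Methylation was not measured, and its part in the members' values was not tested.

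**Figure D5:**
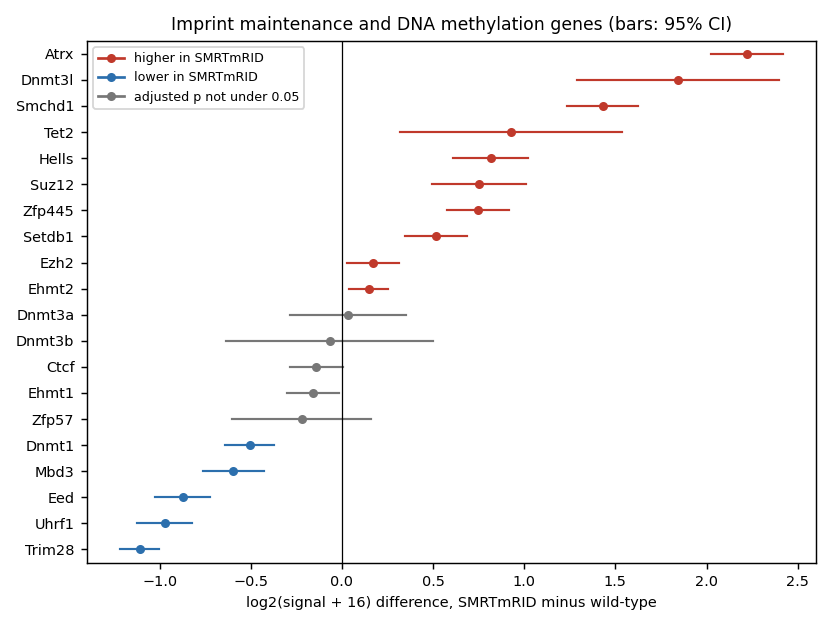
Difference in log2(signal + 16), SMRTmRID minus wild-type (x axis), of the 20 tested genes of imprint maintenance and DNA methylation, with 95% intervals from limma as bars. Atrx lies at 2.22 and Dnmt3l at 1.84, Trim28 at -1.11 and Uhrf1 at -0.97, and 5 genes did not pass.

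Partners of the members' proteins went both ways. In the receptor axis that Grb10 binds, 7 rises and 7 falls were counted over 18 tested genes, whose median was -0.12. The called share was 77.8%, beside 65.2% of all tested genes, 30.3% higher and 35.0% lower. Insr, the insulin receptor gene, had 294 and 261 in SMRTmRID and 156 and 126 in wild-type, a rise of 0.90, whereas Igf1r had a difference of -0.45. The kinase subunit genes Pik3ca and Pik3r1 rose by 1.43 and 1.05, the growth factor gene Igf1 by 1.05 and Igf2bp3, which encodes an RNA-binding protein of Igf2 mRNA, by 1.23, and Akt2 had a difference of -0.77.

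Around Dlk1, 3 rises and 5 falls were counted over 10 tested genes, whose median was -0.10. The called share was 80%, beside 65.2% of all tested genes, 30.3% higher and 35.0% lower. Adam17, the protease that sheds Dlk1, had 653 and 656 in SMRTmRID and 328 and 329 in wild-type, a difference of 0.96 ± 0.07 (SE, limma adjusted p = 1.80e-06). Dlk2, the closest relative of Dlk1, had 59.8 and 40.8 in SMRTmRID and 130.3 and 148 in wild-type, a difference of -1.24, and Foxo1 one of -0.65. Sox9, through which Dlk1 acts in preadipocytes, Notch1 and Hes1 had differences of 0.39, -0.42 and -0.39, and each of these calls was lost under at least 1 left-out array, with adjusted p of 0.0552 for Sox9 without wild-type replicate 2. For Notch1 it was 0.0896 without SMRTmRID replicate 1 and 0.141 without wild-type replicate 1, and for Hes1 0.163 without SMRTmRID replicate 2 and 0.160 without wild-type replicate 1.

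Among genes of the sarcoglycan and dystrophin complex, to which Sgce is related, 3 rises and 1 fall were counted over 9 tested, whose median was 0.09. The called share was 44.4%, beside 65.2% of all tested genes, 30.3% higher and 35.0% lower. Dag1, the dystroglycan gene, had 1484 and 1477 in SMRTmRID and 2676 and 2870.3 in wild-type, a difference of -0.90, while Dtna and Utrn rose by 1.01 and 0.50. Sspn rose by 0.19 and did not pass without SMRTmRID replicate 1 (0.197) or wild-type replicate 1 (0.130). Of 14 tested partners of Ndn, Peg3 and Plagl1 in growth arrest, 4 were higher and 4 lower, and the median was 0.04. Their called share was 57.1%, also beside 65.2%. Ccnd1, the cyclin D1 gene, had 951 and 962 in SMRTmRID and 2491 and 2272 in wild-type, a difference of -1.30, and Siah2 and E2f4 had differences of -0.81 and -0.62. Rb1 had 182 and 204 in SMRTmRID and 103 and 50.7 in wild-type, a rise of 1.22 that was 0.80 without wild-type replicate 2 and 0.50 over the mean of its probe sets. Plagl2 and E2f3 rose by 0.44 and 0.37. The call of Plagl2 was lost without SMRTmRID replicate 2 (0.205) or wild-type replicate 2 (0.246), and that of E2f3 without SMRTmRID replicate 2 (0.0590).

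Markers of cell types differed between the genotypes too. Their counts below stand beside 65.2% of all tested genes called, 30.3% higher and 35.0% lower. Of 12 fibroblast markers 8 rose and 3 fell, and their summed signal was 97534 and 93018 in SMRTmRID and 70205 and 72023 in wild-type. These sums add different probe sets, so bright ones weigh most. Thy1 had 3172 and 3184 in SMRTmRID and 20.6 and 6.57 in wild-type. Fap had 484 and 472 in SMRTmRID and 4.20 and 9.04 in wild-type, and Lum had 189.9 and 176 in SMRTmRID and 3.25 and 3.05 in wild-type. Thy1, Fap and Lum, counted among the 8 rises, passed the filter through the SMRTmRID arrays alone and so had to differ. The receptor genes Pdgfra and Pdgfrb rose by 4.20 and 1.78. Among the collagen genes Col1a1 did not pass, at 13726 and 12691 in SMRTmRID and 12705 and 13418 in wild-type, and Col3a1 and Col1a2 rose by 0.62 and 0.19. Fn1, Vim and S100a4 had differences of -0.18, -0.16 and -0.31. The 8 named cartilage and bone markers summed to 425 and 502 in SMRTmRID and 2972 and 3107 in wild-type, with 1 rising and 2 falling of 4 tested, and Col2a1 had 46.1 and 29.3 in SMRTmRID and 2555 and 2703 in wild-type. The 12 skeletal muscle markers summed to 189 and 142 in SMRTmRID and 479 and 330 in wild-type. Of 2 tested 1 passed, Acta1, with 8.63 and 4.35 in SMRTmRID and 324 and 203 in wild-type. Acta1, and Col10a1 among the falling cartilage and bone markers, passed the filter through their wild-type arrays alone and so had to differ. The defining muscle regulators Myod1 and Myog had no signal above 27.6. The 8 named adipocyte markers summed to 1493 and 1553 in SMRTmRID and 379 and 349 in wild-type, and 1 of 2 tested passed, Fabp4, with 1328 and 1408 in SMRTmRID and 198 and 211 in wild-type, while Adipoq was at 15.3 and 12.96 in SMRTmRID against 1.92 and 9.54 in wild-type. Endothelial and blood markers summed to 388 and 358 in SMRTmRID and 417 and 200.4 in wild-type, and epithelial and neural ones to 512 and 453 in SMRTmRID against 636 and 667 in wild-type. The part of these differences in the members' values was not tested.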

How the data were processed

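The authors deposited linear intensities, which the submitters' processing notes attribute to MAS5, with 1 value for each probe set on each array. These had a mean without the outer 2% of 200.0 on each array, so they were already scaled. Detection calls were not used here. Of 45101 probe sets, 64 controls were left out. Platform annotation gave 34945 probe sets 1 gene symbol, 932 several (not named) and 9160 none, and 34741 of the named were matched to RefSeq on GRCm38.p6 for current symbols and chromosomes. The probe set brightest on average stood for its gene. It was tested when that mean exceeded 35.1, the median of all values. Of 18193 genes, 11057 were tested. Values were taken as log2(signal + 16) and fitted with limma 3.58.1 in R 4.3.3 (lmFit, eBayes with a trend, 4 arrays, no covariate, two-sided, Benjamini-Hochberg threshold of 0.05). Probe sets were fitted likewise, over 22481. The fit was tested on simulated data. With gene variances set to limma's posterior estimates, false calls exceeded the nominal share, and a first check on such data failed. The check was then revised to draw variances from limma's fitted prior, which favours the model, and there the share stayed near nominal. The adjusted p-values may therefore be too small. With 2 arrays a genotype, their number limits the precision. Genotypes and replicate numbers come from the sample titles. Same-numbered arrays did not deviate together (r = 0.012 across genes).

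Members and lists (12 beside the members, 220 symbols) were chosen with earlier results of these data known. Named are all members, the measured imprinted neighbours and up to 8 other called imprinted genes, those with the greatest absolute difference. Of each further list up to 6 called genes were named by the same rule. Genes beyond this were named after their values were seen (Dnmt1, Igf1r, Ube3a, Pon2, Pon3, Zfp57, Zfp445, Hells, Suz12, Setdb1 and cell type markers). Alternatives were pseudocounts 1 and 64, no filter, a filter at the 75th percentile of signal, quantile normalization, median centring, no trend, averaging all probe sets of a gene, blocking on replicate number, and leaving out arrays in turn. The motifs searched, the windows printed and the grouping by parental allele were chosen after the values were seen. Plots used matplotlib 3.10.9.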

Additional observations from a re-analysis of the deposited data

How the results depend on the processing

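Mest, Dlk1, Ndn, Grb10, Peg3 and Sgce kept their direction and passed under every alternative that tested them (13 each, and 12 for Peg3, which a filter at the 75th percentile of signal removes). Their ranges were -1.80 to -1.38 for Mest, -1.16 to -0.67 for Dlk1, -0.74 to -0.33 for Ndn, -0.72 to -0.42 for Grb10, 1.03 to 3.08 for Peg3 and 0.77 to 1.202 for Sgce, the smallest for Dlk1, Ndn, Peg3 and Sgce coming from the mean over all probe sets, dim ones included. Meg3 kept its sign in all 13 and its call in 7. It did not pass without the filter (-0.14, adjusted p = 0.0550), without a variance trend (-0.14, 0.147) or with quantile normalization (-0.056, 0.357), and with 1 array left out its difference lay between -0.16 and -0.11. Plagl1, which passed nowhere, turned to -0.0039 with quantile normalization and to -0.058 without wild-type replicate 2, and lay between -0.058 and 0.17 with 1 array left out. Quantile normalization gave a median of all tested genes of -0.11, beside -0.05. With the filter at the 75th percentile 1 member was higher in place of 2, and 7 other imprinted genes were lower in place of 17, as fewer genes were tested. The other counts stayed within 1.5 times of their values, all genes called between 5191 and 7420 against 7213. With 1 array left out, the lone array of that genotype is assumed to vary like the other pair, and 4 or 5 members were lower and 2 higher. Nnat, tested without the filter alone, had a difference of 0.02 (adjusted p = 0.975). The replicate number as a block does not pair the arrays. It gave 7420 calls over all genes, changed no member's call (Dlk1 -0.996, Meg3 -0.14 at adjusted p = 0.0340), and left 17 member probe sets called. Low signals limit Nnat, H19's joint probe set and the wild-type level of Peg3 and Igf2.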

Other observations

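The 5 tested genes on either side of each tested member were read in chromosome order. Over all tested genes 65.2% passed, 30.3% higher and 35.0% lower, so several calls among 10 genes do not set a region apart. Around Sgce 6 of 10 rose and 1 fell, with a median difference of 0.61, and around Ndn 2 rose and 6 fell, with a median of -0.64. Around Mest 3 rose, 0 fell by the limma test and 7 missed its threshold, and the median was 0.22, while Mest itself had a difference of -1.68. Around Peg3 1 rose and 5 fell, with a median of -0.45, while Peg3 had 2.26. Around Dlk1 1 rose and 6 fell, and around Meg3 1 rose and 7 fell, windows that share most of their genes. Around Grb10 3 rose and 2 fell, and around Plagl1 5 rose and 3 fell. The windows also hold imprinted genes described above, so they are not a separate set. Among these are Casd1 and Asb4 around Sgce, Peg12, Atp10a and Ube3a around Ndn, and Cobl around Grb10. Rian and Mirg lie in the windows of both Dlk1 and Meg3. Asb4, Peg12 and Cobl had to differ to be tested. These counts are descriptions of neighbouring genes and were not tested.

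The start windows of the members varied in their number of CpG dinucleotides. The first Grb10 window held 45, more than 98.1% of all windows, and the Plagl1 window 26, against a median of 7 over all windows. The Dlk1 window printed above held 9, the Meg3 and Peg3 windows 13 each and the Mest window 17.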
